A study of Mus musculus with 6 samples.

Results

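The genes described here are 10 mouse genes of bile acid synthesis, conjugation, transport and feedback, namely Cyp7a1, Cyp7b1, Cyp8b1, Cyp27a1, Baat, Slc27a5, Slc10a1, Abcb11, Slco1b2 and Nr0b2. They were named, with earlier results of these data at hand, for their known roles, from 55536 genes with counts. Their RNA was measured by RNA sequencing of whole tumors that grew from HCA-1 cells, a murine hepatocellular carcinoma (HCC) line, injected under the capsule of the liver of male C3H mice (C3H/HeNCrNarl in the study's methods) aged 6 to 8 weeks. The Control group held tumors 5, 6 and 7 from untreated mice (n = 3). The GOx-DOX-LGP group held tumors 1, 2 and 5 (n = 3), called treated tumors below, from mice given, by vein on days 18, 19 and 20, a lipid-gelatin-protamine nanogel (LGP) loaded with glucose oxidase (GOx), which consumes glucose, and doxorubicin (DOX), a DNA-damaging anthracycline. All 6 tumors came from the same implanted line, and the controls are labelled untreated, with no group given empty nanogel among the samples analysed here, so the carrier and its cargo cannot be told apart. The labels also place the transcriptome measurement on day 17 after 3 h of circulation, which precedes the dosing days they give. The labels do not state that each library came from a separate mouse, so p-values measure only the spread between these samples, which may be technical.

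Bile acids are made from cholesterol in hepatocytes. In the classical route CYP7A1 hydroxylates cholesterol first, and CYP8B1 later sets the share of cholic acid, while CYP27A1 and CYP7B1 act in the alternative route that starts on the side chain. The products are joined to taurine or glycine, leave the hepatocyte into bile through a canalicular pump and return from the gut to be taken up again at the sinusoidal membrane. Bile acids that bind the nuclear receptor FXR (Nr1h4) induce SHP (Nr0b2), a repressor that lowers their own synthesis. Together these genes are characteristic of differentiated hepatocytes.

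The libraries held between 15529940 and 18401178 counts. Control 5 stood apart from the other 2 controls. Across 15374 genes its log2 levels correlated with the treated tumors at Pearson's r between 0.966 and 0.975, but with Control 6 at 0.73 and with Control 7 at 0.659 (values across genes, which are not independent replicates). The 18 hepatocyte markers, which include albumin (Alb), transthyretin and fibrinogen genes, made up 0.106% of all counts in Control 5, 11.6% in Control 6 and 13.4% in Control 7. They made up 0.548%, 0.224% and 0.318% in treated tumors 1, 2 and 5, and none of the 18 was at 0 in any library. The main counts and the values of the 10 genes are therefore given with and without it. Whether liver beside the tumor entered the libraries of Controls 6 and 7, and whether the label of Control 5 is right, was not tested, and the labels were kept. In bulk tissue, fewer hepatocytes in a tumor and less RNA of these genes per hepatocyte cannot be told apart.

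Promoter sequences are shown because the 10 genes varied together across the libraries, with values given further on. RefSeq entries (build GRCm38.p6, 250 bases before to 50 bases after the start) were found by symbol for 6 of the 10 genes, in 7 promoters. A script searched both strands for the nuclear receptor monomer site AGGTCA, the extended NR5A2 sites CAAGGTCA and CAAGGCCA (the first contains AGGTCA), the HNF1 monomer site GTTAAT and the TATA box TATAAA. Capitals mark the matches, written as they occur on the gene's own strand, 5′ to 3′, so that a match on the other strand appears as its reverse complement. Of all 32851 promoters of this length, 16.3% held AGGTCA, 1.56% CAAGGTCA, 2.4% CAAGGCCA, 7.1% GTTAAT and 13.6% TATAAA. Of the 7 promoters, 5 are shown, from enzymes, transporters and the repressor.
Cyp8b1 (chr9:121916256-121916555, minus strand): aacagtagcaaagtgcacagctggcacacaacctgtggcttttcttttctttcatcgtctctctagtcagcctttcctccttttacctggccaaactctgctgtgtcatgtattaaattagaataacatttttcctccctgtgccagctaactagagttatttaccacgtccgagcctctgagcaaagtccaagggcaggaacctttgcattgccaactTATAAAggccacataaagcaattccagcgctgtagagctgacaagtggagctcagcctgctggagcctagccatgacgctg
Cyp27a1 (chr1:74713285-74713584, plus strand): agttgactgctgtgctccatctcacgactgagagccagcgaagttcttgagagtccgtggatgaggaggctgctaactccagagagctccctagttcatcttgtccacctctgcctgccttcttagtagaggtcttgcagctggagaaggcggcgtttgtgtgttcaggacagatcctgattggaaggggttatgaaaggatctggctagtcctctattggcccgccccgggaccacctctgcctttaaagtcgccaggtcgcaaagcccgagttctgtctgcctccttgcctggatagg
Abcb11 (chr2:69342567-69342866, minus strand): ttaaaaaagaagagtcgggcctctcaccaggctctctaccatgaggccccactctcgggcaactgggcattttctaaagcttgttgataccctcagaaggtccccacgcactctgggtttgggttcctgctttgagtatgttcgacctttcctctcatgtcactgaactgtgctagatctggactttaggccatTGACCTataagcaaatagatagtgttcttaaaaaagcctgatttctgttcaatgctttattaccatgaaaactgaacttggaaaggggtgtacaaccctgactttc
Slco1b2 (chr6:141629268-141629567, plus strand): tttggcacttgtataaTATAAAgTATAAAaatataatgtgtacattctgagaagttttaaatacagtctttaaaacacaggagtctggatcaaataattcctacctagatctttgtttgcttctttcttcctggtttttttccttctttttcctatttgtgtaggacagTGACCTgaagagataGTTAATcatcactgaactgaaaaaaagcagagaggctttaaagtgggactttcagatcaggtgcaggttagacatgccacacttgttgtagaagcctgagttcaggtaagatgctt
Nr0b2 (chr4:133553126-133553425, plus strand): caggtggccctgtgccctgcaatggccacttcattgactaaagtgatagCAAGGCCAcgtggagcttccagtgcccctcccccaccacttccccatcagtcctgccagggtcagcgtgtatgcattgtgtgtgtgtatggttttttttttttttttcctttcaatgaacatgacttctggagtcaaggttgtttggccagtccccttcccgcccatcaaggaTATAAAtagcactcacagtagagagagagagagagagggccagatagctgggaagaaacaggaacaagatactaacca
TATAAA was found in the promoters of Cyp8b1, Slco1b2 and Nr0b2 and in 1 of the 2 of Slc10a1, thus in 4 of the 7. AGGTCA was found in 3 of the 7, those of Abcb11 and Slco1b2 on the other strand and the second promoter of Slc10a1. GTTAAT was found in Slco1b2 and CAAGGCCA in Nr0b2, and Cyp27a1 held none of the 5 motifs. These matches describe the letters only.

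The enzymes that begin synthesis were abundant in Controls 6 and 7 and scarce in the other 4 tumors. Levels are given as CPM, counts scaled to library size, with sizes corrected by TMM, the edgeR method that allows for differences in composition, and gene positions are those of GENCODE M21 on build GRCm38. Cyp7a1 (ENSMUSG00000028240, chr4:6265612-6275633, minus strand), the rate-limiting enzyme of the classical route, reached 102.5 CPM in Control 6 and 224.9 CPM in Control 7. It was 0.702 CPM in Control 5, from 16 counts, and 7.27, 1.81 and 2.29 CPM in treated tumors 1, 2 and 5. Control 5 thus lay below all treated tumors, and the groups overlapped. Means were 109.4 ± 112.3 CPM in controls and 3.79 ± 3.02 CPM in treated tumors (SD, n = 3 each), a log2 fold change of -4.85 (SE 1.75) that did not pass edgeR's quasi-likelihood test over all genes (adjusted p = 0.252).

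Cyp8b1 (ENSMUSG00000050445, chr9:121914356-121916305, minus strand), the 12-alpha-hydroxylase that directs synthesis to cholic acid, followed the same order of libraries as Cyp7a1. Its levels were 1.14, 292.7 and 370.1 CPM in Controls 5, 6 and 7, against 7.07, 2.69 and 3.23 CPM in treated tumors 1, 2 and 5. The log2 fold change was -5.67 (SE 1.8, edgeR adjusted p = 0.247).

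Of the alternative route, Cyp7b1 (ENSMUSG00000039519, chr3:18071950-18243338, minus strand), the oxysterol 7-alpha-hydroxylase, was the exception to the lowest place of Control 5. It stood at 3.86 CPM there, between the 3.49 CPM of GOx-DOX-LGP 5 and the 5.34 CPM of GOx-DOX-LGP 1, with 6.86 CPM in GOx-DOX-LGP 2. Controls 6 and 7 held 209.5 and 597.6 CPM. Its log2 fold change was -5.69 (SE 1.62, edgeR adjusted p = 0.247). Cyp27a1 (ENSMUSG00000026170, chr1:74713574-74737892, plus strand), the mitochondrial sterol 27-hydroxylase that is also made outside hepatocytes, varied least among the treated tumors. It measured 17, 488.3 and 685.3 CPM in Controls 5, 6 and 7, against 18.2, 22.2 and 19.5 CPM in treated tumors 1, 2 and 5. Control 5 was within 1.07-fold of the lowest treated tumor, and the 3 treated tumors lay within 1.22-fold of each other, the narrowest range of the 10 genes. Means were 396.8 ± 343.4 CPM in controls and 19.95 ± 2.045 CPM in treated tumors (SD, n = 3 each). Its log2 fold change, -4.31 (SE 1.22, edgeR adjusted p = 0.247), was the smallest of the 9 genes tested.

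The genes of conjugation, like Cyp8b1, followed the order of libraries of Cyp7a1. Slc27a5 (ENSMUSG00000030382, chr7:12988346-12998192, minus strand) encodes the bile acid CoA ligase and Baat (ENSMUSG00000039653, chr4:49489422-49506557, minus strand) the amino acid transferase that follows it. Slc27a5 was at 0.746, 591.3 and 896.2 CPM in Controls 5, 6 and 7, against 8.4, 2.84 and 4.74 CPM in treated tumors 1, 2 and 5. Baat was at 0.834, 252.4 and 438.4 CPM in the same controls, against 5.54, 2.3 and 3.07 CPM in the same treated tumors. For both, Controls 6 and 7 were far above the rest and Control 5 was lowest. Log2 fold changes were -6.54 (SE 2.11) for Slc27a5 and -5.98 (SE 1.88) for Baat, with an edgeR adjusted p of 0.247 for each.

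Of the uptake carriers, Slc10a1 (ENSMUSG00000021135, chr12:80953183-80968705, minus strand) encodes NTCP, the sodium-dependent carrier of conjugated bile acids, and had the largest difference of the 10 genes. Its level was 0.746 CPM in Control 5, 670 CPM in Control 6 and 1435 CPM in Control 7, against 6.82, 2.69 and 3.07 CPM in treated tumors 1, 2 and 5. Means were 701.9 ± 717.6 CPM in controls and 4.195 ± 2.282 CPM in treated tumors (SD, n = 3 each). Control 6 exceeded the highest treated tumor 98.2-fold, yet Control 5 was below the lowest of them by 3.61-fold. The log2 fold change was -7.38 (SE 2.27, edgeR adjusted p = 0.247). Slco1b2 (ENSMUSG00000030236, chr6:141629518-141686646, plus strand), the sodium-independent anion carrier of the sinusoidal membrane, stood at 1228 and 2066 CPM in Controls 6 and 7. It was low elsewhere, at 2.98 CPM in Control 5 and 19.6, 6.42 and 10.8 CPM in treated tumors 1, 2 and 5. Its log2 fold change was -6.48 (SE 2.02, edgeR adjusted p = 0.247).

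Abcb11 (ENSMUSG00000027048, chr2:69238282-69342616, minus strand) encodes BSEP, the canalicular pump that exports bile salts into bile. Controls 5, 6 and 7 held 1.19, 522.1 and 844.2 CPM, and treated tumors 1, 2 and 5 held 6.67, 2.5 and 4.53 CPM. Here too Control 5 was lowest and the other controls highest. The log2 fold change was -6.64 (SE 2.01, edgeR adjusted p = 0.247). Its exons overlap Gm13613 and Gm13614 on the other strand, and the strand setting of the counting is not given in the sources used here, so reads of these genes cannot be told apart.

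Nr0b2 (ENSMUSG00000037583, chr4:133553376-133556536, plus strand), the feedback repressor SHP, was per length the least abundant of the 10 genes in each library. It had 0 counts in Control 5, which allows up to 0.132 CPM at a floor of 3 counts, and 20.9 and 30.4 CPM in Controls 6 and 7. In GOx-DOX-LGP tumors 1, 2 and 5 it had 4, 3 and 6 counts, or 0.198, 0.147 and 0.312 CPM. It was removed by edgeR's default filter on low counts, so that 9 of the 10 genes were tested. Without that filter its log2 fold change was -6.14 (SE 1.67, edgeR adjusted p = 0.184).

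**Figure D1:**
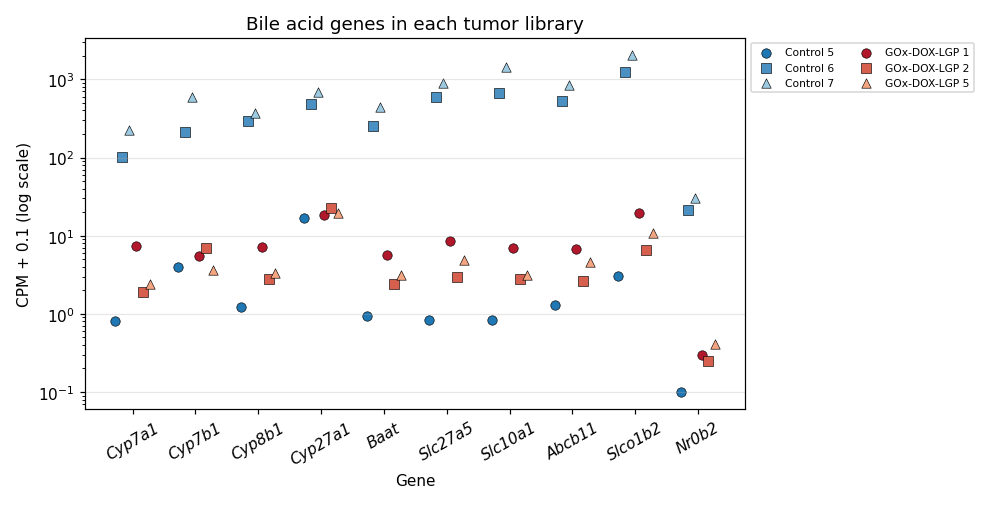
Level of each of the 10 genes in each of the 6 tumor libraries, as CPM + 0.1 on a log scale. Circles, squares and triangles stand for single libraries, blue for Control and red for GOx-DOX-LGP. Controls 6 and 7 lie above all other libraries for every gene, and Control 5 is the lowest for 9 of the 10.

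Read across the set, the order of the libraries was nearly the same from gene to gene. Control 7 was highest and Control 6 second for 10 of the 10 genes, Control 5 was lowest for 9, and GOx-DOX-LGP 1 was the highest treated tumor for 7. Control 7 exceeded Control 6 by 1.26-fold for Cyp8b1 up to 2.85-fold for Cyp7b1, while the lower of these 2 exceeded the highest treated tumor by 14.1-fold for Cyp7a1 up to 98.2-fold for Slc10a1. Per length of exon, where levels of different genes can be compared, Slc10a1 led in Control 7 with 652.5 RPKM (CPM divided by the exon length in kilobases), followed by Slco1b2 with 419.1 and Slc27a5 with 367.6 RPKM. Cyp27a1 led in the 4 tumors with a low share of hepatocyte marker RNA, with 7.81 RPKM in Control 5 and 8.37, 10.2 and 8.96 RPKM in treated tumors 1, 2 and 5. Cyp7a1 had 0.168 RPKM in Control 5 and 1.74, 0.434 and 0.549 RPKM in the treated tumors. With no second library resembling Control 5 among the controls, the place of that tumor has no replicate check.

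The design asks whether these genes differed between GOx-DOX-LGP and Control tumors. All 9 genes tested had a lower fitted level after treatment, with a median log2 fold change of -5.98 beside 0.02 over all 15374 genes. In edgeR's quasi-likelihood test 0 of the 9 had an adjusted p under 0.05, as had 0% of all genes, whose lowest value was 0.247. When p was left unadjusted, 9 of the 9 passed 0.05 and were lower, against 14.6% of all genes lower and 2.87% higher. The groups overlapped for each of the 10 genes in CPM, so 0 of 10 were without overlap, against 17.2% of all genes. DESeq2, which models the spread differently, called 10 of 10 lower at an adjusted p under 0.05, with 9.85% of its genes called lower and 0.684% higher. Limma voom with sample quality weights called 9 of 9 lower, with 30.9% of its genes called lower. The tools thus differed on the calls, although the fitted directions were the same.

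Without Control 5, the 2 remaining controls and 3 treated tumors no longer overlapped for any of the 10 genes, a separation in the lower direction that 35.3% of all genes showed. Also without it, edgeR called 10 of 10 lower, where 25.5% of the genes were called lower and 22.2% higher. The median log2 fold change became -6.67. Values ran from -4.85 (SE 0.25, edgeR adjusted p = 4.6e-05) for Cyp27a1 to -7.93 (SE 0.59, edgeR adjusted p = 7.7e-05) for Slc10a1. The values between them were -6.23 for Cyp7b1, -6.22 for Cyp8b1, -6.53 for Baat, -7.09 for Slc27a5, -7.19 for Abcb11, -7.04 for Slco1b2 and -6.8 for Nr0b2. Cyp7a1 was at -5.39 (SE 0.64, edgeR adjusted p = 0.000594), the largest standard error of the 10.

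Relative to hepatocyte RNA the differences were smaller. The 10 genes together made up 0.00361%, 0.331% and 0.431% of all counts in Controls 5, 6 and 7, against 0.0105%, 0.00611% and 0.0068% in treated tumors 1, 2 and 5. Hepatocyte markers spanned a like range, so that the 10 genes came to 34.2, 28.6 and 32.2 counts per 1000 hepatocyte marker counts in the controls and to 19.2, 27.3 and 21.4 in the treated tumors. On this total the groups did not overlap. Cyp27a1 alone gave 19.9 of the 34.2 in Control 5. Without Cyp27a1 the other 9 genes came to 14.3, 25.5 and 29.3 in the controls and to 15.1, 15.3 and 13.8 in the treated tumors, and the groups overlapped.

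**Figure D2:**
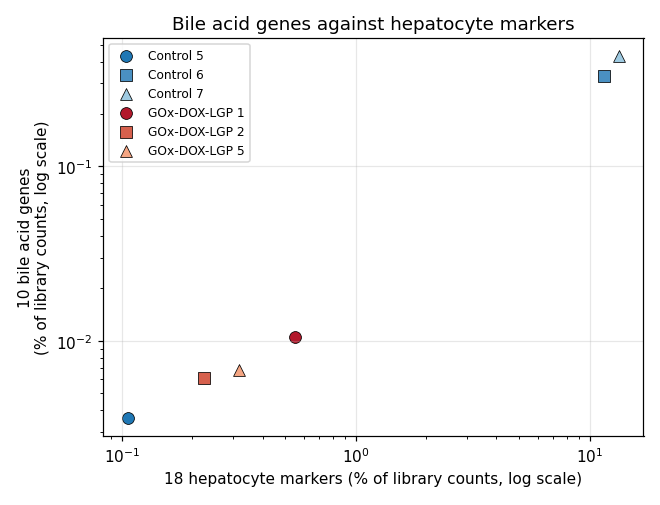
Share of library counts taken by the 10 bile acid genes against the share taken by 18 hepatocyte markers, both in percent on log scales, with 1 point per library. Controls 6 and 7 stand at the upper right with marker shares of 11.6% and 13.4%, and Control 5 at the lower left with 0.106%, below the treated tumors.

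Gene by gene on this scale, 0 of 10 were without overlap, against 0.553% of all genes, 0.338% lower and 0.215% higher. Cyp7a1 measured 0.822, 0.671 and 0.955 per 1000 hepatocyte marker counts in Controls 5, 6 and 7, against 1.64, 0.979 and 0.891 in treated tumors 1, 2 and 5. Only the last of these treated values lay below a control. Against Alb alone, and likewise against Apob alone, Cyp7a1 was higher in all treated tumors than in all controls, which held for 1 of 10 genes, with 0.273% of all genes on the Alb scale and 0.585% on the Apob scale. Slc10a1 measured 0.873, 4.38 and 6.09 in the controls and 1.54, 1.46 and 1.19 in the treated tumors, so that Control 5 again lay below the treated range. Cyp27a1 measured 19.9, 3.2 and 2.91 in the controls and 4.11, 12 and 7.57 in the treated tumors, with Control 5 above all others. With the summed hepatocyte markers in place of the library size, edgeR gave a median log2 fold change of -0.43 over the 9 genes, with 0 of 9 at an unadjusted p under 0.05 and an adjusted p of 1 for each. Estimates ran from 0.52 (SE 2.35) for Cyp7a1 to -1.44 (SE 2.44) for Slc10a1, and each standard error was larger than its estimate. This fit takes the spread in part from all genes, most of which vary widely on this scale. Baat, for example, was at 0.976, 1.65 and 1.86 in the controls and 1.25, 1.24 and 1.19 in the treated tumors, yet had an SE of 2.35. The fit could therefore not decide whether the 9 genes differed on this scale.

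Without Control 5, 6 of the 10 genes were lower without overlap on the hepatocyte scale, namely Baat, Slc27a5, Slc10a1, Abcb11, Slco1b2 and Nr0b2, where 1.88% of all genes were. For example, Slc27a5 was at 3.87 and 3.81 in Controls 6 and 7 and at 1.9, 1.53 and 1.84 in treated tumors 1, 2 and 5. Abcb11 was at 3.42 and 3.59 against 1.51, 1.35 and 1.76. The genes of conjugation and transport were thus lower against hepatocyte markers, while Cyp7a1, Cyp7b1 and Cyp8b1 overlapped. For the repressor Nr0b2 the gap was small. It was at 0.137 and 0.129 in Controls 6 and 7 and at 0.0447, 0.0794 and 0.1215 in treated tumors 1, 2 and 5. These treated values rest on 4, 3 and 6 counts, and treated tumor 5 was nearly level with Control 7. Cyp27a1 was higher without overlap, as were 95.1% of all genes on this scale.

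**Figure D3:**
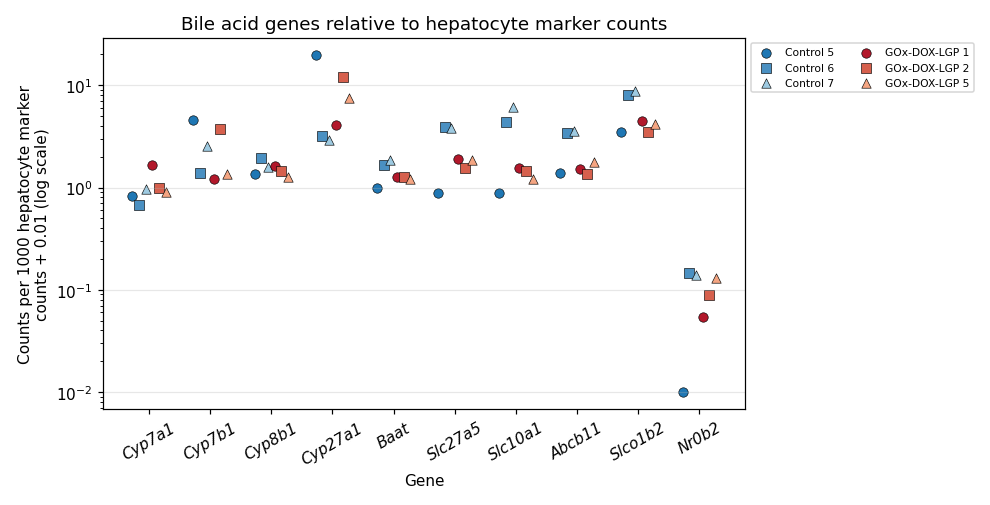
Counts of each of the 10 genes per 1000 counts of 18 hepatocyte markers, plus 0.01, on a log scale, with 1 point per library. Cyp27a1 reaches 19.9 in Control 5, while Slc10a1 is at 4.38 and 6.09 in Controls 6 and 7 and at most 1.54 in the other 4 libraries.

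The make-up of the bile acid counts, which are not corrected for length here, also differed between libraries. Cyp27a1 took 58.2% of the counts of the 10 genes in Control 5 (95% Wilson interval 54.4 to 61.9), but 11.2% and 9.03% in Controls 6 and 7, and 21.4%, 44% and 35.4% in treated tumors 1, 2 and 5. Slco1b2 took the largest share in Controls 6 and 7, with 28% and 27.2%, and in GOx-DOX-LGP 1, with 23.1%. Slc10a1 took 15.3% and 18.9% in Controls 6 and 7 and between 2.56% and 8.01% elsewhere. The share of Cyp7a1 was 2.41%, 2.34% and 2.96% in Controls 5, 6 and 7, against 8.54%, 3.59% and 4.17% in treated tumors 1, 2 and 5. It was the only gene of the 10 whose share did not overlap between the groups, against 0.924% of all genes that were higher without overlap on this scale. The interval of Control 5, 1.49 to 3.87, overlapped those of GOx-DOX-LGP 2, 2.62 to 4.91, and GOx-DOX-LGP 5, 3.12 to 5.55. These intervals cover counting error only.

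**Figure D4:**
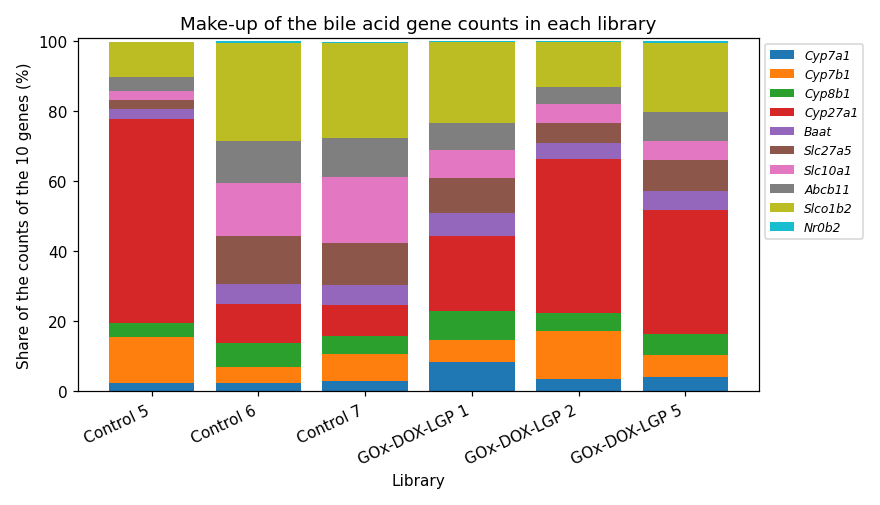
Share of each gene in the summed counts of the 10 genes, in percent, as stacked bars with 1 bar per library. Cyp27a1 fills 58.2% of the bar of Control 5 and 9.03% of that of Control 7, and the treated tumors lie between these values.

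Within the classical route, counts of Cyp8b1 per count of Cyp7a1 were 1.62, 2.86 and 1.65 in Controls 5, 6 and 7, against 0.973, 1.49 and 1.41 in treated tumors 1, 2 and 5. The treated tumors were lower without overlap. This pair was 1 of 6 compared and was picked out after values had been seen, and the groups overlapped for the other 5. The exact 95% interval of Control 5, 0.839 to 3.24, overlapped those of all 3 treated tumors. That of Control 7, 1.56 to 1.74, lay inside those of GOx-DOX-LGP 2, 0.962 to 2.32, and GOx-DOX-LGP 5, 0.942 to 2.12. The gap between those libraries was not detectable at this depth.

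The wider pathway showed the same pattern. Its lists were chosen with earlier results of these data known, so they are no independent check. Of 40 further bile acid genes in 6 lists, 39 had counts and 32 were tested. At an unadjusted p under 0.05 in edgeR, 27 of the 32 were lower and 0 higher, with 14.6% of all genes lower, and 0 of the 32 had an adjusted p under 0.05. Their median log2 fold change was -4.56. Of the synthesis enzymes 9 of 10 were lower at that unadjusted p, and of the uptake list 3 of 4, all but the epoxide hydrolase Ephx1. Of the canalicular transporters 5 of 6 were lower, of the basolateral exporters 1 of 2 and of the regulators 8 of 9. The intestinal carrier gene Slc10a2 was lower too, as the 1 tested of its list, named for that reason. Without Control 5, edgeR called 30 of 34 lower and 3 higher at an adjusted p under 0.05, against 25.5% of all genes lower and 22.2% higher.

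**Figure D5:**
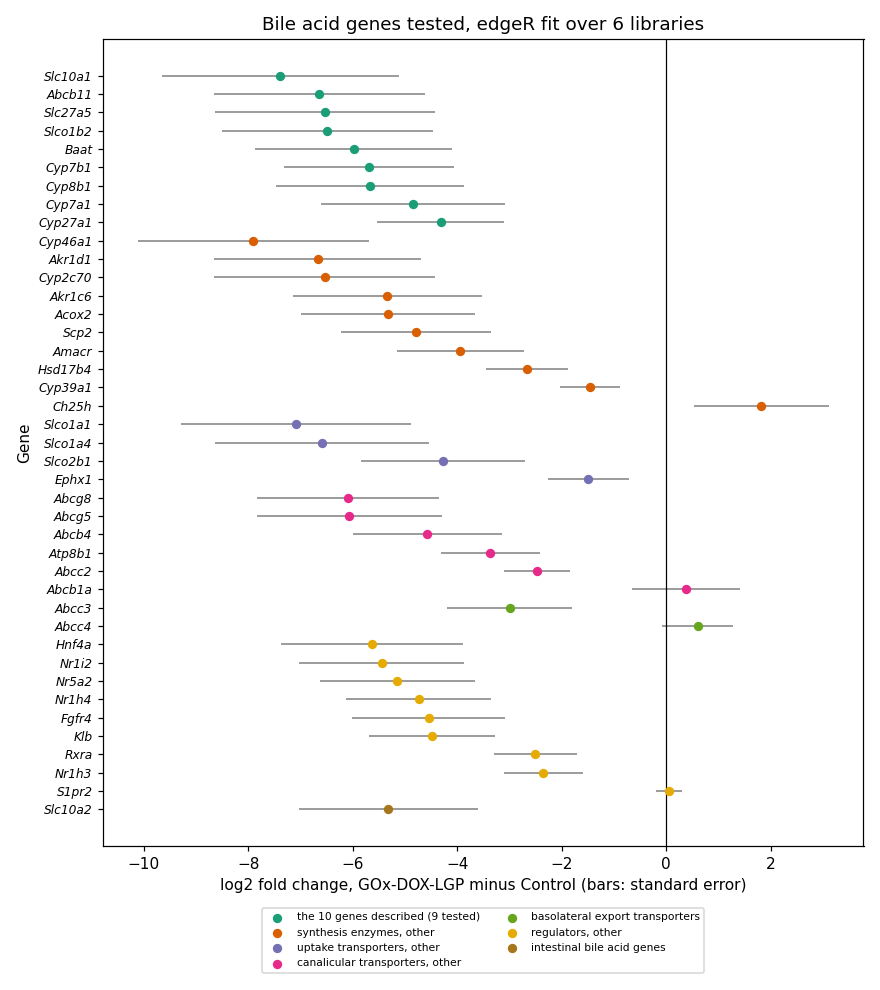
Log2 fold change of GOx-DOX-LGP minus Control for the 9 tested genes of the set and 32 further bile acid genes, with bars for the standard error and colors for the gene lists. Most points lie left of 0, and 4 of the 32 further genes, Ch25h, Abcb1a, Abcc4 and S1pr2, lie to the right.

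Among the regulators, FXR itself (Nr1h4) was at 3.03, 156.3 and 245.1 CPM in Controls 5, 6 and 7, against 5.73, 5.05 and 4.37 CPM in treated tumors 1, 2 and 5, a log2 fold change of -4.74 (SE 1.39, edgeR adjusted p = 0.247). Nr5a2, or LRH-1, an activator of Cyp7a1 and Cyp8b1, had a log2 fold change of -5.15 (SE 1.48), and the xenobiotic receptor Nr1i2 one of -5.45 (SE 1.59), at the same adjusted p in edgeR. Klb, the co-receptor through which the gut hormone FGF15 restrains Cyp7a1, was at 1.36, 34.4 and 51.3 CPM in the controls and at 1.28, 1.22 and 1.35 CPM in the treated tumors. The groups did not overlap, although Control 5 and treated tumor 5 were nearly level.

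Further enzymes and transporters of the route were likewise highest in Controls 6 and 7. Cyp46a1, a cholesterol 24-hydroxylase, had the lowest log2 fold change, -7.91 (SE 2.21), and Akr1d1, the 5-beta-reductase of the steroid ring, had -6.67 (SE 1.98). The peroxisomal genes of side chain shortening Hsd17b4 and Scp2 had -2.66 (SE 0.79) and -4.79 (SE 1.43), though 29.7% of 50-base stretches of Scp2 also occur in Scp2-ps2. The sterol exporter subunits Abcg5 and Abcg8, whose genes overlap on opposite strands so that their reads cannot be told apart without strand, had -6.06 (SE 1.77) and -6.08 (SE 1.74). The edgeR adjusted p was 0.247 for each of these genes.

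Canalicular Abcc2 and Atp8b1 were lower in all treated tumors than in all controls, Control 5 included. Abcc2, the exporter of conjugated organic anions, was at 204.5, 595.9 and 1025 CPM in Controls 5, 6 and 7, against 142.7, 88.2 and 97.4 CPM in treated tumors 1, 2 and 5, a log2 fold change of -2.48 (SE 0.63, edgeR adjusted p = 0.247). Atp8b1, a phospholipid flippase of the canalicular membrane, was at 8.73, 63.4 and 110.5 CPM and at 7.46, 7.4 and 2.76 CPM, a log2 fold change of -3.37 (SE 0.94) at the same adjusted p in edgeR. For Atp8b1, Control 5 lay close to treated tumors 1 and 2. With Klb these were the 3 of the 32 without overlap in the lower direction, against 8.31% of all genes. The 5 genes that did not reach an unadjusted p under 0.05 were Ch25h, Ephx1, Abcb1a, Abcc4 and S1pr2, named after their values were seen. Ch25h, the cholesterol 25-hydroxylase that macrophages also make, was at 6.76, 0.763 and 0 CPM in Controls 5, 6 and 7, against 13.9, 6.86 and 6.87 CPM in treated tumors 1, 2 and 5. It was higher without overlap, as were 8.87% of all genes, although Control 5 and treated tumors 2 and 5 were nearly level. Without Control 5, the 3 called higher were Ch25h, Abcb1a and Abcc4, with log2 fold changes of 4.48, 2.74 and 1.75, a smaller share of the 34 than the 22.2% of all genes called higher.

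Summed levels of cell type marker lists stand beside these results, and their part in them was not tested. The 18 hepatocyte markers were lower at an unadjusted p under 0.05 for 18 of 18 genes, with a median log2 fold change of -5.36, near the -5.98 of the bile acid genes. Over all genes tested in edgeR, 14.6% were lower and 2.87% higher at that p. Pericentral hepatocyte markers were lower for 7 of 7 with a median of -6.2, and periportal ones for 7 of 7 with a median of -5.31. The 7 cholangiocyte markers summed to 7033 CPM in Control 5 and between 4757 and 7140 CPM in treated tumors, against 586.7 and 249.3 CPM in Controls 6 and 7, with 1 of the 7 at 0 in Control 7, and 0 of 7 had an unadjusted p under 0.05 in edgeR. The 6 proliferation markers summed to 893.2 CPM in Control 5, 258.5 and 43.5 CPM in Controls 6 and 7 and between 620.1 and 785.7 CPM in treated tumors, and 0 of 6 had such a p. Macrophage markers summed to 904, 861.1 and 519.1 CPM in Controls 5, 6 and 7, against 873.2, 2015 and 1272 CPM in treated tumors 1, 2 and 5, and 2 of 8 were higher at such a p. Leukocyte markers summed to 114.1 and 60.1 CPM in Controls 6 and 7 and between 209.5 and 272.9 CPM in the other 4 libraries, Control 5 included, and 2 of 5 were higher at such a p. Endothelial and fibroblast markers summed to 5709 CPM in Control 5, 1395 and 1023 CPM in Controls 6 and 7 and between 2198 and 6639 CPM in treated tumors. Of these 8 genes 4 had a higher and 4 a lower fitted level, with 2 lower at such a p. Oncofetal hepatoma markers summed to 10.2, 43.9 and 42.2 CPM in the controls, with 10.8, 8.87 and 8.17 CPM in the treated tumors, and 3 of 4 were lower at such a p.

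Among the genes whose pattern was most like the mean log2 CPM of the bile acid genes were F13b, Cfhr2, 0610005C13Rik and Otc, with Pearson's r from 0.9997 to 0.9999 over 6 libraries. This is a description, since 496 of 9967 genes with a mean of at least 10 CPM, or 4.98%, had an r above 0.99, and Controls 6 and 7 are the high points of each. Otc, the urea cycle enzyme ornithine transcarbamylase, was at 0.834, 521.2 and 964.5 CPM in Controls 5, 6 and 7, against 7.07, 2.5 and 2.97 CPM in treated tumors 1, 2 and 5.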

How the data were processed

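RNA of 6 tumors was sequenced. The authors deposited raw counts per gene, without pooling of replicates, and signal values, which equal those counts after division by 1 factor per library and were used here for gene symbols only. The methods of the study name TopHat and HTSeq, whereas the submitters' processing notes list Trimmomatic 0.38, HISAT2 2.1.0 and featureCounts 2.0.0; the genome build, annotation and strand setting of the counts are not given in the sources used here. Gene positions and exon lengths are from GENCODE M21 (GRCm38), matched by gene identifier.

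Counts were analysed in R 4.3.3 with edgeR 4.0.16 (filterByExpr, TMM, quasi-likelihood test, Benjamini-Hochberg adjustment over 15374 genes, threshold 0.05) over all 6 libraries, with groups taken from the labels and no covariates. Alternatives used DESeq2 1.42.0, limma 3.58.1, other scalings and filters, and the leaving out of each library; robust shrinkage was added after values had been seen. The steps were tested on simulated counts. Library totals ran from 15529940 to 18401178. A fixed floor of 3 counts was divided by the TMM-corrected size of each library, and intervals and floors cover counting error only. All 10 genes are reported. Of the further bile acid genes, at most 12 at an unadjusted p under 0.05 or without overlap were named with values in order of p; Slc10a2, Ch25h, Ephx1, Abcb1a, Abcc4 and S1pr2 were named beyond these after values had been seen. The genes and lists were chosen with earlier results of these data known. Of the 5 genes selected by likeness of pattern, 1 is not reported here.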

Additional observations from a re-analysis of the deposited data

How the results depend on the processing

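None of the 9 genes tested changed direction under DESeq2, limma voom, DESeq2 size factors, library totals, upper quartile factors or other filters on low counts. Nr0b2, tested only with DESeq2, without the filter or with some libraries left out, was lower in each of these. With the hepatocyte marker sum as library size, Cyp7a1 turned to 0.52 and Nr1h4 to 0.033, the median over the 9 genes moved to -0.43, and the genes at an unadjusted p under 0.05 went from 9 to 0, and from 27 to 0 in the wider list. That fit takes the spread in part from all genes, which vary widely on this scale, so these counts of 0 do not decide whether the genes differed. Library totals shifted the median log2 fold change of all genes from 0.02 to 0.51 and upper quartile factors to 0.19, with the 9 genes at a median of -5.04 and -5.71. DESeq2 called 10 of the 10 genes (9.85% of its genes lower) and limma voom 9 (30.9% lower), where edgeR called 0. Limma voom found 3 further bile acid genes higher at an unadjusted p under 0.05 where edgeR found 0. In edgeR 2.87% of all genes were higher at that p, and the share for limma voom is not given here. Relative to Alb or Apob alone, 1 of the 10, Cyp7a1, was higher without overlap in place of 0, with 0.273% and 0.585% of all genes. The cause was not tested.

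Leaving out each library in turn gave 0 to 10 genes called and 0 to 10 without overlap in CPM, both 10 only without Control 5. Without that library edgeR called 25.5% of all genes lower, and 35.3% were lower without overlap. On the hepatocyte scale 0 to 7 were without overlap. Without Control 5 these were 6 lower, where 1.88% of all genes were, and Cyp27a1 higher, where 95.1% were. Without Control 7 or GOx-DOX-LGP 5 it was Cyp7a1, which was higher, and without GOx-DOX-LGP 2 it was Cyp7b1, which was lower. Shares of all genes are not given for these last fits. Genes at an unadjusted p under 0.05 numbered 1 to 10, with 2 without GOx-DOX-LGP 2 and 1 without GOx-DOX-LGP 5. In the wider list 5 to 30 were lower, with 7 and 5 without those tumors, and 0 to 3 higher, 3 only without Control 5. Shares of all genes at that p are not given for these fits, so the changes in these counts are not a result about the bile acid genes. The median ran from -6.67 to -5.13. Depth limits Nr0b2 most, with 6 or fewer counts in 4 libraries. No paired analysis was made, since the labels name no pairs. The groups share 1 replicate number, which the labels do not describe as a pair.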
